A study of Saccharomyces cerevisiae with 15 samples.

Results

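Slow growth on xylose was compared with the state that follows the exhaustion of glucose in a recombinant strain of Saccharomyces cerevisiae. The comparison takes 10 of 15 arrays, or 6 of 9 samples. The labels assign them to 72 h on xylose (Xyl72h) and to 24 h on glucose (Glc24h). Each sample, a vessel at a single time, is called a culture below. All cultures were of the single strain VTT-C-99318, built in CEN.PK2-1D, a MATα laboratory haploid with leu2, ura3, trp1 and his3 auxotrophies, MAL2-8c and SUC2. The strain carries XYL1 and XYL2 of Pichia stipitis, which encode xylose reductase and xylitol dehydrogenase, at the URA3 locus, XYL1 behind the PGK1 promoter and XYL2 behind a modified ADH1 promoter. A second copy of the yeast's own xylulokinase gene XKS1, also behind the modified ADH1 promoter, lies at HIS3 with the kanMX marker. Cultures were aerated batch fermentations in synthetic complete medium that began with 50 g of sugar per litre. The Xyl72h cultures still held xylose when sampled, whereas the Glc24h cultures had used up their glucose and held the ethanol made from it. The third state of the series, 5 h on glucose (Glc5h), was sampled from the same vessels as Glc24h and is given beside some genes only for orientation. Samples of each state came from 3 fermentations (0, 1 and 2), and the sample of fermentation 2 was hybridised 3 times, so that n = 3 cultures a state throughout. Sugar, age of the culture and growth rate all differ between the states compared and cannot be told apart, and the samples are bulk RNA, in which fewer expressing cells and less transcript per cell cannot be told apart either.

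When glucose runs out, yeast turns to the ethanol it has made. The kinase Snf1 is then active, activators such as Cat8, Sip4 and Adr1 switch on the genes for ethanol and acetate use, the glyoxylate cycle and gluconeogenesis, and carbon flows upwards from acetyl-CoA to hexose phosphate. Xylose enters from the other side: reduced to xylitol, oxidised to xylulose and phosphorylated by xylulokinase, it reaches the pentose phosphate pathway and from there glycolysis, so that its carbon reaches the sugar phosphates without the glyoxylate cycle or gluconeogenesis. The hexose transporters of yeast, which are also the entry route of xylose, are controlled by the sensors Snf3 and Rgt2, the corepressors Mth1 and Std1 and the repressor Rgt1.

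Affymetrix Yeast Genome S98 arrays carry a probe set for each gene, and each value is a signal in arbitrary units after scaling, with signals under 16 set to 16 (the floor). In each sentence that follows, the signals are given in the order of cultures 0, 1 and 2, that of culture 2 being the geometric mean of its 3 hybridisations, and a fold is a ratio of geometric means over 3 cultures. Cultures differed by an SD of 0.461 in Glc24h and 0.347 in Xyl72h on the log2 scale, against 0.169 and 0.165 between hybridisations of the same RNA. The array of Glc24h culture 1 stood apart in RNA quality by some control genes but not by all. Its actin signal at the 3' end over that at the 5' end was 10.3 against 1.88 to 3.01 on the other 9 arrays of the comparison. For the control labelled HER the ratio was 15.1 against 3.03 to 7.54. For TBP it was 3.24, within the 2.97 to 4.13 of the other 9 arrays. The part of this array in the results was not tested, and the numbers of calls without it are given below. The markers of the mating type were as the genotype states. Of the a cell markers MFA1, MFA2, STE2, BAR1 and ASG7, 4 were at the floor on every array and MFA2 did not exceed 25.1, while all 4 alpha cell markers were above the floor in some culture. URA3 was at the floor on every array.

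Of 5877 probe sets above the floor somewhere in the series, 198 (3.37%) were called higher and 133 (2.26%) lower in Xyl72h than in Glc24h, in all 331 (5.63%), by limma's moderated test with Benjamini-Hochberg adjustment at 0.05. Taking 1 probe set for each of 4681 named genes, 122 genes (2.61%) rose and 125 (2.67%) fell, in all 247 (5.28%), and the median log2 difference over all genes tested was 0. In every call the 3 signals of one state lay wholly above the 3 of the other. Such separation by itself was common: the xylose cultures lay wholly above in 569 genes (12.2%) and wholly below in 562 (12%). The changes were mostly of moderate size. Of the probe sets called higher 117 differed by more than 2-fold and 34 by more than 4-fold, and of those called lower 82 and 25. The balance of the directions depended on the scaling: 49.4% of the called genes were higher with the scaling used here, 33.3% with the signals as deposited and 34.4% with the arrays scaled on 10 reference genes. With the fermentation number as a block in the fit, 170 genes were called higher and 147 lower, including 112 of the 122 and 106 of the 125. Leaving out single cultures reduced the calls to 56 higher and 60 lower without Xyl72h culture 0, 45 and 46 without Xyl72h culture 1, 60 and 54 without Xyl72h culture 2, 78 and 79 without Glc24h culture 0, 77 and 86 without Glc24h culture 1, and 65 and 85 without Glc24h culture 2.

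**Figure D1:**
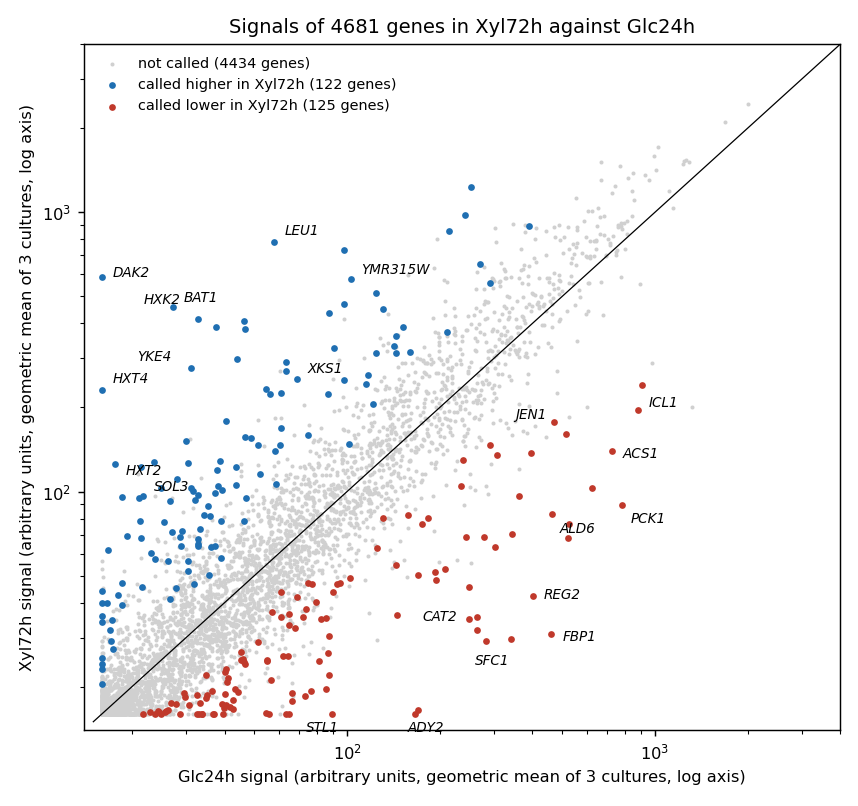
Mean signal of each of 4681 genes in Glc24h (x axis) and Xyl72h (y axis), geometric means of 3 cultures in arbitrary units on log axes, with the diagonal of equal signals. The 122 genes called higher (blue) and 125 called lower (red) lie on either side of the diagonal, and the genes of gluconeogenesis, the glyoxylate cycle and acetate use (FBP1, PCK1, ICL1, ACS1) are among those farthest below it at high signal.

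A core of 38 genes called higher and 37 called lower kept the call in all 6 fits that left out 1 culture, and 35 and 36 of them did so also under 4 other scalings and with the block. A named call without remark below belongs to this set, and the last sentences of a paragraph list the calls that do not. In the lists described with 0 calls in a direction, at most 1 gene passed an unadjusted p of 0.05 in that direction, save where a count is given. The counts of each list stand beside the shares over all genes. These were 2.61% called higher, 2.67% called lower, 12.2% wholly above and 12% wholly below. The greatest difference was in DAK2 (YFL053W), a dihydroxyacetone kinase, with 16, 16 and 16.1 in Glc24h and 759.5, 453 and 588 in Xyl72h. It was switched from the floor to a high signal (log2 5.19 ± 0.18, adjusted p = 2.5e-05), and was at the floor in Glc5h too. On the other side stood FBP1 (YLR377C), fructose bisphosphatase, the enzyme that makes gluconeogenesis possible, with 781, 367 and 341 in Glc24h and 27.5, 35 and 30.9 in Xyl72h. Its signal was 14.9-fold lower in Xyl72h (log2 -3.89 ± 0.30, adjusted p = 0.00112). Several of the most separated genes encode proteins of the membrane or of unknown function. YKE4 (YIL023C), a zinc transporter of the endoplasmic reticulum, had 33.7, 16 and 56.3 in Glc24h and 279, 233 and 324 in Xyl72h (log2 3.15 ± 0.41, adjusted p = 0.00708). YGR067C, a zinc finger protein of unknown function, had 416, 243 and 394 in Glc24h and 40.3, 17.6 and 37.3 in Xyl72h (log2 -3.52 ± 0.34, adjusted p = 0.00264) and was at the floor in Glc5h.

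**Figure D2:**
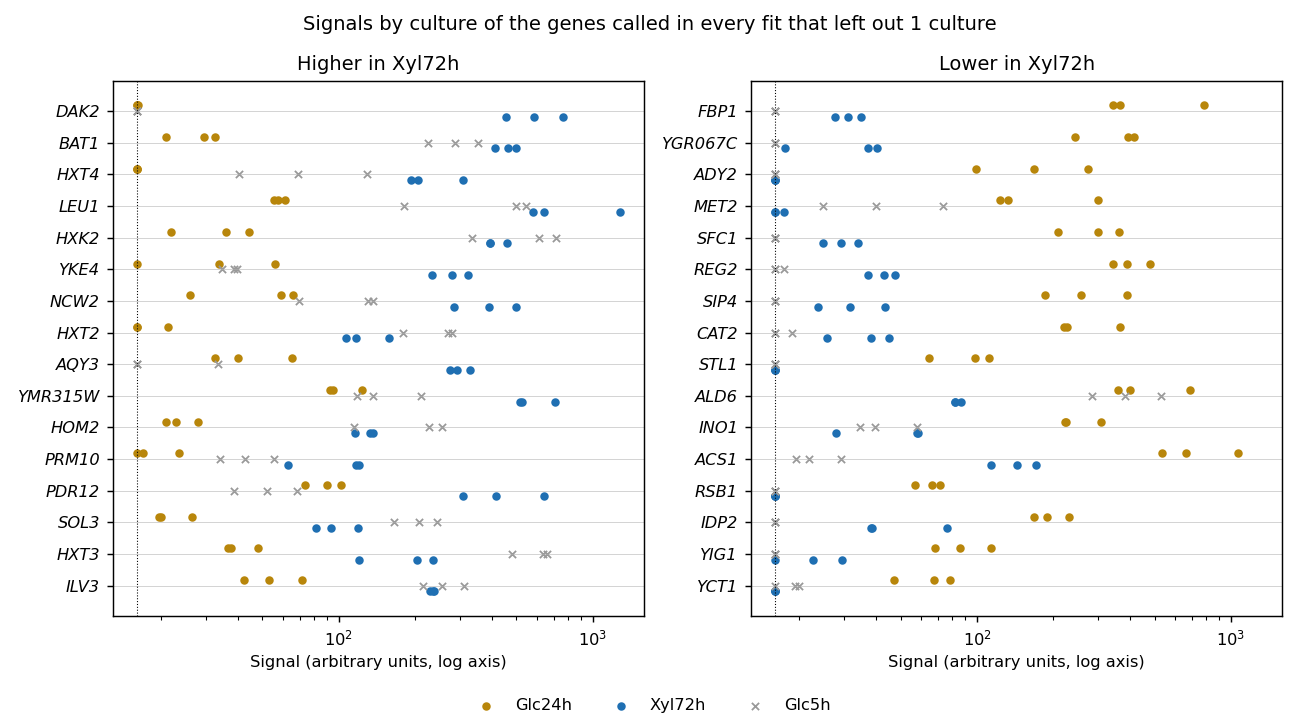
Signals of each culture (points, arbitrary units on a log axis) for the 16 genes with the greatest rise (left) and the 16 with the greatest fall (right) among those called in all 6 fits that left out 1 culture, with Glc5h as crosses and the floor of 16 as a dotted line. In every row the Xyl72h and Glc24h points do not overlap, and in the right panel Glc5h lies at or near the floor for most genes.

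Genes of gluconeogenesis and the glyoxylate cycle were lower as a group in Xyl72h. Of 9 members tested, 6 fell and 0 rose, 8 lay wholly below Glc24h, and the median log2 difference was -2.0, where it was 0 over all genes. SFC1 (YJR095W), the carrier that exchanges cytosolic succinate from the glyoxylate cycle for fumarate, had 362, 299 and 208 in Glc24h and 29.2, 34.1 and 24.8 in Xyl72h, a 9.70-fold difference (log2 -3.28 ± 0.21, adjusted p = 0.000486). IDP2 (YLR174W), the cytosolic NADP-dependent isocitrate dehydrogenase, had 229, 189 and 168 in Glc24h and 76.5, 38.4 and 38.5 in Xyl72h (log2 -2.0 ± 0.27, adjusted p = 0.00866). In both genes the fall left a signal above the floor that was seen in every Glc5h culture. PCK1 (YKR097W), phosphoenolpyruvate carboxykinase, showed the widest spread of the group, with 1349, 611 and 573 in Glc24h and 58.7, 188 and 64.9 in Xyl72h (log2 -3.12 ± 0.49, adjusted p = 0.0156). The enzymes particular to the glyoxylate cycle kept high signals in both states. Malate synthase, MLS1 (YNL117W), had 1579.9, 611 and 769 in Glc24h and 285, 228 and 214 in Xyl72h (log2 -1.91 ± 0.32, adjusted p = 0.0186), and isocitrate lyase, ICL1 (YER065C), had 1408, 543 and 896 in Glc24h and 165, 186 and 242 in Xyl72h (log2 -2.17 ± 0.42, adjusted p = 0.0281). The cytosolic malate dehydrogenase gene MDH2 had 1180.3, 459.9 and 402 in Glc24h and 281, 171 and 169 in Xyl72h (adjusted p = 0.111), and CIT2, the peroxisomal citrate synthase, 949.9, 479.6 and 648 in Glc24h and 671, 514 and 514 in Xyl72h (adjusted p = 0.833), with overlap between the states. Without single cultures, calls were lost for PCK1 (without Xyl72h cultures 0 and 2, adjusted p = 0.0524 to 0.0559), MLS1 (without Xyl72h cultures 0, 1 and 2, adjusted p = 0.0506 to 0.0769) and ICL1 (in all fits but that without Glc24h culture 1, adjusted p = 0.0637 to 0.101).

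Ethanol and acetate use divided gene by gene. Of 12 members tested, 4 fell and 1 rose. The median was -0.31, -0.74 with quantile normalization, -0.57 without Xyl72h culture 0, -0.56 without Glc24h culture 1 and -0.20 without Glc24h culture 0. ADY2 (YCR010C), an acetate transporter, had 272, 168 and 99.5 in Glc24h and 16 in all 3 cultures of Xyl72h, at least 10.4-fold lower (log2 -3.37 ± 0.32, adjusted p = 0.00255). ACS1 (YAL054C), the acetyl-CoA synthetase of cells without glucose, had 1062, 536 and 668 in Glc24h and 170.1, 113 and 143 in Xyl72h (log2 -2.37 ± 0.29, adjusted p = 0.00583). ALD6 (YPL061W), the main cytosolic acetaldehyde dehydrogenase and a source of NADPH, had 691, 359 and 401 in Glc24h and 86.2, 82 and 82.2 in Xyl72h (log2 -2.47 ± 0.30, adjusted p = 0.00568). Its 3 Xyl72h signals were nearly equal, and it was the only 1 of these 3 genes with a high signal in Glc5h (531, 381 and 284 in Glc5h). The alcohol dehydrogenase of ethanol oxidation, ADH2 (YMR303C), had 792, 191 and 267 in Glc24h and 79.4, 51.5 and 84.8 in Xyl72h (log2 -2.29 ± 0.52, adjusted p = 0.0486). The rise was in ALD5 (YER073W), a mitochondrial acetaldehyde dehydrogenase, with 23.1, 16 and 25.5 in Glc24h and 118, 69.5 and 103 in Xyl72h (log2 2.16 ± 0.36, adjusted p = 0.0186). The ammonia or acetate exporter gene ATO3 was separated in the same direction, with 76.9, 41 and 42.6 in Glc24h and 276, 129 and 165 in Xyl72h, but missed the threshold (adjusted p = 0.0515), while ATO2, ALD4 and ACH1 overlapped between the states. JEN1 (YKL217W), the lactate and pyruvate permease, was outside the lists and named after its values were seen. It had 586, 416 and 553 in Glc24h and 215, 116 and 167 in Xyl72h and fell 3.19-fold (log2 -1.67 ± 0.23, adjusted p = 0.00919). The fits that left out 1 culture ended the calls of ADH2 (in all fits but that without Glc24h culture 1, adjusted p = 0.0522 to 0.157) and ALD5 (without Xyl72h cultures 0 and 2 or Glc24h culture 1, adjusted p = 0.0535 to 0.0674).

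The carnitine shuttle, which carries acetyl groups from the cytosol and the peroxisome into mitochondria, fell together with acetate use. CAT2 (YML042W), the carnitine acetyltransferase of peroxisomes and mitochondria, had 365, 221 and 226 in Glc24h and 45.1, 25.8 and 38.4 in Xyl72h (log2 -2.89 ± 0.26, adjusted p = 0.00237). YAT2 (YER024W), a cytosolic carnitine acetyltransferase, had 697, 360.0 and 571 in Glc24h and 90.2, 34.8 and 101 in Xyl72h (log2 -2.94 ± 0.48, adjusted p = 0.0171), and CRC1 (YOR100C), the mitochondrial carnitine carrier, 878, 334 and 824 in Glc24h and 86.3, 68.4 and 187 in Xyl72h (log2 -2.59 ± 0.48, adjusted p = 0.0265). The third acetyltransferase gene, YAT1, had 2288, 723 and 1381 in Glc24h and 577, 92 and 153 in Xyl72h, also wholly below but with a wide spread in both states (log2 -2.71 ± 0.69, adjusted p = 0.0684). Of the 31 tested genes of peroxisomes, fatty acid oxidation and carnitine, 7 fell, 0 rose and 13 lay wholly below, with a median of -0.61. In the fits without 1 culture there were 2 to 8 calls, the fewest without Glc24h culture 0, where the median was -0.36. Some genes of fatty acid oxidation itself fell too. FOX2 (YKR009C), the multifunctional enzyme of peroxisomal oxidation, had 244, 189 and 133 in Glc24h and 84.6, 78.5 and 78 in Xyl72h (log2 -1.19 ± 0.27, adjusted p = 0.0462), and CTA1 (YDR256C), the peroxisomal catalase, 108, 66.5 and 92.3 in Glc24h and 34.7, 20.5 and 39.3 in Xyl72h (log2 -1.52 ± 0.27, adjusted p = 0.0216). POT1, the thiolase, overlapped between the states (adjusted p = 0.476), as did PEX11, PEX14, FAA1 and MDH3. Among the peroxins the exception was PEX21 (YGR239C), with 35.2, 39.3 and 26.1 in Glc24h and 16, 16 and 16 in Xyl72h (log2 -1.04 ± 0.15, adjusted p = 0.0107). Calls that depended on single cultures were those of YAT2 (without Glc24h cultures 0 and 2, adjusted p = 0.052 to 0.0537), CRC1 (in all fits but that without Xyl72h culture 2 or Glc24h culture 1, adjusted p = 0.0705 to 0.0932), FOX2 (in all fits but that without Glc24h culture 2, adjusted p = 0.11 to 0.144), CTA1 (without Xyl72h culture 0 or Glc24h cultures 0 and 2, adjusted p = 0.0557 to 0.0663) and PEX21 (without Xyl72h culture 1, adjusted p = 0.0501). With the block FOX2 (adjusted p = 0.0784) was not called. CTA1 was called under 3 of the 4 other scalings.

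Of 16 TCA cycle genes 2 fell and 0 rose, with a median of -0.20 that depended on the scaling. With quantile normalization 5 fell and the median was -0.56, and with cyclic loess 4 fell and it was -0.58. Leaving out Xyl72h culture 0 gave -0.42, Glc24h culture 0 -0.12 and Glc24h culture 1 -0.39. CIT3 (YPR001W), a mitochondrial isoform that acts on citrate and methylcitrate, had 68.3, 89.8 and 86.2 in Glc24h and 25, 19.4 and 31 in Xyl72h (log2 -1.71 ± 0.20, adjusted p = 0.00494), and IDH1 (YNL037C), a subunit of the NAD-dependent isocitrate dehydrogenase, 349, 317 and 225 in Glc24h and 164, 137 and 140.5 in Xyl72h (log2 -0.99 ± 0.18, adjusted p = 0.026). The next gene on the chromosome after CIT3, PDH1 (YPR002W), encodes the methylcitrate dehydratase, and its signals were 346, 312 and 253 in Glc24h and 80.5, 41.9 and 75.8 in Xyl72h (log2 -2.25 ± 0.37, adjusted p = 0.0173). Of the 16 TCA cycle genes 5 lay wholly below and 0 wholly above. ACO1, aconitase, lay wholly below without passing, with 657, 549 and 484 in Glc24h and 395, 295 and 353 in Xyl72h (adjusted p = 0.0721). CIT1, KGD1, SDH1, SDH2, SDH4, IDH2 and MDH1 overlapped between the states. Of 35 genes of the respiratory chain and ATP synthase only NDE2 (YDL085W), an external NADH dehydrogenase that feeds cytosolic NADH to the chain, was called. It had 441, 309 and 346 in Glc24h and 106, 68.5 and 125 in Xyl72h (log2 -1.90 ± 0.23, adjusted p = 0.00583), while it was at the floor in Glc5h. The median of the respiratory list was 0.05 and was below 0 under each of the 4 other scalings (-0.27 to -0.03), without Xyl72h culture 0 (-0.04) and without Glc24h culture 1 (-0.06). All 60 mitochondrial ribosomal protein genes tested missed the threshold, with a median of -0.35, 2 of 60 above 0 and 6 lower where limma's p was under 0.05 before adjustment. That median rested on single libraries, being -0.14 without Glc24h culture 1, the array of unlike RNA quality, and -0.57 without Glc24h culture 0. Of these calls, leaving out a culture ended IDH1 (in all fits but that without Glc24h culture 2, adjusted p = 0.0582 to 0.0991) and PDH1 (without Xyl72h culture 1 or Glc24h cultures 0 and 1, adjusted p = 0.0512 to 0.0569).

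Regulators that act with Snf1 were lower in Xyl72h where they were called. Of 22 tested genes of the Snf1 kinase and its regulators, 5 fell, 0 rose and 9 lay wholly below. REG2 (YBR050C), a subunit that directs the phosphatase Glc7 to glucose-regulated targets, had 480.2, 343 and 389.7 in Glc24h and 47.5, 43.2 and 37.1 in Xyl72h, a 9.44-fold difference with little spread (log2 -3.24 ± 0.15, adjusted p = 0.000156). SIP4 (YJL089W), an activator of gluconeogenic genes, had 388, 185 and 257 in Glc24h and 43.3, 23.7 and 31.7 in Xyl72h (log2 -3.05 ± 0.30, adjusted p = 0.00264). Both were at or near the floor in Glc5h, so that Xyl72h lay between the glucose states. Its distance from Glc5h is bounded by the floor, so which state it was closer to cannot be told. CAT8 (YMR280C), the activator upstream of SIP4, had 67.4, 70.3 and 55.8 in Glc24h and 35.5, 24.1 and 20.3 in Xyl72h (log2 -1.31 ± 0.21, adjusted p = 0.0155). GAL83 (YER027C), a subunit of the Snf1 complex, had 37.1, 50.4 and 49.9 in Glc24h and 28.4, 22.5 and 24.6 in Xyl72h and HAP3 (YBL021C), a subunit of the activator of respiratory genes, 40.3, 52.6 and 46.3 in Glc24h and 22.8, 23.1 and 28.2 in Xyl72h. ADR1 had 55.6, 47.4 and 45.6 in Glc24h and 42.2, 33.2 and 31.4 in Xyl72h and HAP4 had 421, 229 and 321 in Glc24h and 356, 97.8 and 167 in Xyl72h, and neither passed (adjusted p = 0.102 and 0.456). SNF1 itself, SNF4, REG1 and NRG1 overlapped between the states, and MIG1 was at or near the floor. A kinase gene that rose, TDA1 (YMR291W), was named after its values were seen. Tda1 is needed for the phosphorylation of Hxk2 in cells low in glucose, and TDA1 had 26.9, 32.4 and 27 in Glc24h and 65.3, 67.4 and 74 in Xyl72h (log2 1.26 ± 0.11, adjusted p = 0.00199). Without single cultures, calls were lost for CAT8 (without Xyl72h culture 1, adjusted p = 0.0662), GAL83 (in all fits but that without Glc24h culture 0, adjusted p = 0.0633 to 0.116) and HAP3 (in all 6 fits, adjusted p = 0.0542 to 0.119). With the block GAL83 (adjusted p = 0.0538) was not called.

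Hexose uptake and its first step were among the clearest rises. HXT4 (YHR092C), a high-affinity hexose transporter, had 16 in all 3 cultures of Glc24h and 193, 308 and 205 in Xyl72h, at least 14.4-fold higher (log2 3.85 ± 0.39, adjusted p = 0.00301). HXT2 (YMR011W), also of high affinity, had 16, 16 and 21.3 in Glc24h and 157, 116 and 107 in Xyl72h (log2 2.83 ± 0.23, adjusted p = 0.00151), and HXT3 (YDR345C), of low affinity, 48.2, 36.5 and 37.6 in Glc24h and 120.2, 235 and 202 in Xyl72h (log2 2.14 ± 0.27, adjusted p = 0.00623). In Glc5h the signals were 69.1, 129 and 40.3 for HXT4, 279, 269 and 179 for HXT2 and 659, 635 and 482 for HXT3, so that Xyl72h had the highest HXT4 of the 3 states and lay between the glucose states in HXT2 and HXT3. MTH1 (YDR277C), a corepressor of these transporters, rose as well, with 61.1, 43.2 and 39.5 in Glc24h and 114, 92.8 and 81.3 in Xyl72h (log2 1.01 ± 0.19, adjusted p = 0.0269). The other transporters named here, HXT1, HXT5 and HXT7, overlapped between the states. Of the 23 genes of this list, 16 had a probe set of a single gene name and 13 were tested. HXT16 was among those without such a probe set, and HXT8, HXT14 and GAL2 were at the floor on every array. HXT1, the low-affinity transporter of cells at high glucose, had 16, 16 and 30 in Glc24h and 19.4, 17.4 and 17.6 in Xyl72h, and HXT5 1040.1, 455 and 767 in Glc24h and 989, 559 and 809 in Xyl72h. HXT6 and HXT7 are nearly identical in sequence, so that their probe sets may read each other. HXT7 had 843, 441 and 628 in Glc24h and 979.8, 622 and 799 in Xyl72h (adjusted p = 0.58). The repressor gene RGT1 had 171, 107 and 149 in Glc24h and 109, 65.5 and 63.3 in Xyl72h and overlapped (adjusted p = 0.292). Of 13 tested genes of this list 4 rose and 0 fell, with a median of 0.21 that lay between 0.05 and 0.09 under the other scalings and was 0.07 without Xyl72h culture 0, 0.05 without Glc24h culture 1, 0.39 without Xyl72h culture 1 and 0.41 without Glc24h culture 0. The fits that left out 1 culture ended the calls of MTH1 (in all fits but that without Glc24h culture 0, adjusted p = 0.0514 to 0.0903).

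Inside the cell HXK2 (YGL253W), the hexokinase that also takes part in glucose repression, had 36.1, 21.9 and 44.3 in Glc24h and 394, 460.1 and 395 in Xyl72h (log2 3.67 ± 0.34, adjusted p = 0.00255). It rose 12.7-fold to a signal whose 3 cultures lay within the range of Glc5h (713, 612 and 335 in Glc5h). HXK1, the isoenzyme, had 329.9, 269.8 and 243 in Glc24h and 818, 492 and 644 in Xyl72h, wholly higher as well but short of the threshold (adjusted p = 0.374), and the glucokinase gene GLK1 overlapped (861, 424 and 597 in Glc24h and 1031, 506 and 625 in Xyl72h). PFK2 (YMR205C), a subunit of phosphofructokinase, rose by less than 2-fold with very tight signals, 301, 278 and 297 in Glc24h and 547, 575 and 558 in Xyl72h (log2 0.94 ± 0.11, adjusted p = 0.00553). PFK1, the other subunit, had 297, 262 and 299 in Glc24h and 470.1, 380.3 and 412 in Xyl72h (adjusted p = 0.0782). ENO2 (YHR174W), an enolase whose probe set is marked as incomplete and which resembles ENO1, had 308, 159 and 287 in Glc24h and 1367, 681 and 1001 in Xyl72h (log2 2.02 ± 0.38, adjusted p = 0.0265). Of 16 glycolytic genes 3 rose, 0 fell and 15 had a positive difference. The median of 0.72 shrank to 0.11 with cyclic loess, to 0.40 without Xyl72h culture 0 and to 0.46 without Glc24h culture 1. PDC1, the main pyruvate decarboxylase, had 308, 187 and 130.4 in Glc24h and 1257, 671 and 617 in Xyl72h (adjusted p = 0.0534), while PDC5 (YLR134W), the second isoenzyme, went the other way with 61.1, 65.5 and 59 in Glc24h and 27.5, 27.7 and 22.7 in Xyl72h (log2 -1.26 ± 0.25, adjusted p = 0.0304). Calls that depended on single cultures were those of ENO2 (in all fits but that without Xyl72h culture 1 or Glc24h culture 0, adjusted p = 0.0553 to 0.0868) and PDC5 (in all 6 fits, adjusted p = 0.0718 to 0.106). PFK2 was called under 2 of the 4 other scalings.

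The pentose phosphate pathway, through which xylose carbon passes, showed rises in 4 of 23 tested genes and falls in none, with a median of 0.46. Under the other scalings 3 to 4 rose, 1 fell with scaling on reference genes, and the median was 0.24 with quantile normalization and 0.17 with cyclic loess. In the oxidative branch, 1 gene of each step after glucose 6-phosphate dehydrogenase was called higher. SOL3 (YHR163W), a phosphogluconolactonase, had 19.9, 26.4 and 19.6 in Glc24h and 81.6, 92.9 and 118 in Xyl72h (log2 2.15 ± 0.21, adjusted p = 0.00264). Its isoenzyme gene SOL4 was not called (log2 -0.26) and had the higher signal in both states. The mean log2 ratio of SOL3 over SOL4 was -4.06 in Glc24h and -1.65 in Xyl72h. GND1 (YHR183W), the main phosphogluconate dehydrogenase, had 120.2, 126 and 148 in Glc24h and 454, 446 and 451 in Xyl72h, nearly the same in the 3 Xyl72h cultures (log2 1.78 ± 0.21, adjusted p = 0.00519). SOL3 and GND1 were higher still in Glc5h cultures 0 and 1 (244, 164 and 206 for SOL3 and 782, 593 and 430.3 for GND1). TKL1 (YPR074C), transketolase of the non-oxidative branch, had 96.1, 96.9 and 99.7 in Glc24h and 269.7, 264 and 220.4 in Xyl72h (log2 1.36 ± 0.20, adjusted p = 0.0116). ZWF1, glucose 6-phosphate dehydrogenase, ranged from 87.2 to 395 in Glc24h and from 328 to 675 in Xyl72h and overlapped (adjusted p = 0.388). The transaldolase gene TAL1 had 139, 188 and 105 in Glc24h and 210.1, 256 and 146 in Xyl72h (adjusted p = 0.454), and ribose phosphate isomerase, RKI1, had 30.2, 32.1 and 19.1 in Glc24h and 16 in all 3 cultures of Xyl72h, wholly below without passing the threshold (adjusted p = 0.247). At the entry of xylose, XKS1 (YGR194C) had 149, 101 and 101 in Glc24h and 248, 263 and 219 in Xyl72h, a 2.11-fold difference (log2 1.08 ± 0.22, adjusted p = 0.0364). Its probe set reads the native gene and the added copy together. ADH1, whose promoter in modified form drives that copy, had 969, 411 and 745 in Glc24h and 2162, 1189 and 1337 in Xyl72h (adjusted p = 0.215), and PGK1, whose promoter drives XYL1, 1442, 505 and 1331 in Glc24h and 2496, 1037 and 1533 in Xyl72h (adjusted p = 0.595). The native aldose reductase gene GRE3, which can also reduce xylose, overlapped, with 125, 68.5 and 139 in Glc24h and 120.2, 67.5 and 98.7 in Xyl72h (adjusted p = 0.862). Of these calls, leaving out a culture ended TKL1 (without Xyl72h culture 1, adjusted p = 0.0556) and XKS1 (in all fits but that without Glc24h culture 0, adjusted p = 0.089 to 0.126). XKS1 was called under 1 of the 4 other scalings.

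YMR315W, an NADPH-linked oxidoreductase, had 123, 94.9 and 92.6 in Glc24h and 707, 526 and 515 in Xyl72h (log2 2.49 ± 0.24, adjusted p = 0.00264). SHB17 (YKR043C), the sedoheptulose bisphosphatase that feeds ribose synthesis without the oxidative branch, had 38.7, 28.1 and 49.5 in Glc24h and 124, 128 and 108 in Xyl72h (log2 1.67 ± 0.32, adjusted p = 0.0279). YEF1 (YEL041W), a kinase that makes NADP and NADPH from NAD and NADH, had 48.7, 16 and 28.3 in Glc24h and 102, 109.9 and 122 in Xyl72h (log2 1.99 ± 0.37, adjusted p = 0.0253). SHB17 and YEF1 were named after their values were seen. Without single cultures, calls were lost for SHB17 (in all fits but that without Glc24h culture 2, adjusted p = 0.0665 to 0.101) and YEF1 (in all fits but that without Glc24h cultures 0 and 1, adjusted p = 0.0667 to 0.0892).

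Glycerol and dihydroxyacetone genes parted by direction within a list of 11, with 2 higher and 2 lower. DAK2, described above, lies next to AQY3 (YFL054C) on the chromosome, in opposite orientation, and AQY3, a predicted water and glycerol channel, had 40, 32.6 and 65.2 in Glc24h and 293, 274 and 329 in Xyl72h (log2 2.76 ± 0.35, adjusted p = 0.00677). DAK1, the other dihydroxyacetone kinase, overlapped, with 63.2, 83.8 and 55.7 in Glc24h and 78.7, 118 and 99 in Xyl72h (adjusted p = 0.523). In glycerol formation, GPP2 (YER062C), a glycerol phosphatase, had 32.4, 16.7 and 17.9 in Glc24h and 89.1, 81.3 and 67.3 in Xyl72h (log2 1.88 ± 0.42, adjusted p = 0.0462) and GPP1 121, 54.4 and 34.1 in Glc24h and 323, 288 and 213 in Xyl72h (adjusted p = 0.0573). In glycerol uptake and use the direction was the opposite. STL1 (YDR536W), the proton symporter that takes up glycerol, had 111, 98.4 and 64.6 in Glc24h and 16 in all 3 cultures of Xyl72h, at least 5.57-fold lower (log2 -2.48 ± 0.19, adjusted p = 0.00112), and GUT1 (YHL032C), glycerol kinase, 227, 182 and 129 in Glc24h and 94, 63.2 and 75.2 in Xyl72h (log2 -1.19 ± 0.23, adjusted p = 0.0276). The channel gene FPS1 was level between the states, with 83.1, 77.7 and 76.6 in Glc24h and 96.8, 79.2 and 79 in Xyl72h (adjusted p = 0.796). The fits that left out 1 culture ended the calls of GPP2 (in all 6 fits, adjusted p = 0.0508 to 0.138) and GUT1 (in all fits but that without Xyl72h culture 0 or Glc24h culture 2, adjusted p = 0.0598 to 0.0997). With the block GPP2 (adjusted p = 0.0539) was not called. GPP2 was called under 2 of the 4 other scalings.

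Many reactions of central metabolism are run by 2 isoenzymes, and the ratio of their signals within a culture shows unequal change, since a scaling factor of the array cancels in it. The 40 pairs compared also held transporters, such as HXT2 with HXT3, and enzymes of different reactions, PMI40 with SEC53. Of the 40 pairs, 21 had ratios that did not overlap between Xyl72h and Glc24h. The share among other pairs of genes was not determined. With 3 cultures a state the exact permutation test (two-sided) cannot go below p = 0.1, which 21 pairs reached (adjusted p = 0.19), so that the differences are given as sizes. On the log2 scale the ratio DAK1 over DAK2 differed by -4.65 (Xyl72h less Glc24h), a size bounded by the floor, at or within 0.2 of which all 3 Glc24h signals of DAK2 lay, and BAT1 over BAT2 by 4.39, where DAK2 and BAT1 rose and the partners DAK1 and BAT2 were not called. For the catalases, CTA1 over CTT1, the difference was -3.57, where CTA1 fell and CTT1 (YGR088W), the cytosolic catalase, rose with 31.3, 42.1 and 21.6 in Glc24h and 160.4, 86.7 and 146 in Xyl72h (log2 2.05 ± 0.42, adjusted p = 0.0362). ADH1 over ADH2 was higher by 3.47, PDC1 over PDC5 by 3.29 and SOL3 over SOL4 by 2.41. CDC19 over PYK2, the pyruvate kinases, was higher by 1.97, although neither gene was called by itself. ALD6 over ALD4 differed by -2.70 and HXK1 over HXK2 by -2.47, and IDP1 over IDP2 was higher by 2.02. TKL1 over TKL2, HXT2 over HXT3, TDH1 over TDH3, CIT1 over CIT2 and GPP1 over GPP2 were among the 19 pairs whose ratios overlapped. Calls that depended on single cultures were those of CTT1 (in all 6 fits, adjusted p = 0.054 to 0.12). With the block CTT1 (adjusted p = 0.0564) was not called. CTT1 was called under 3 of the 4 other scalings.

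**Figure D3:**
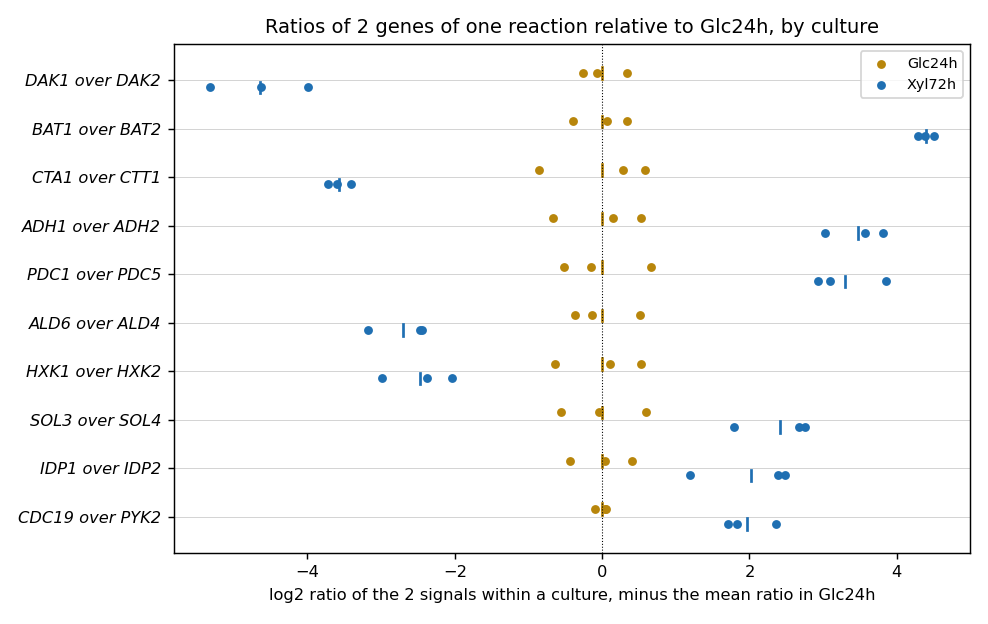
Log2 ratio of the signals of 2 genes within each culture, less the mean ratio of the 3 Glc24h cultures (x axis), for the 10 pairs whose ratios differed most. Points are cultures and bars are means over 3 cultures, and the Xyl72h points lie wholly to the left of Glc24h for DAK1 over DAK2, CTA1 over CTT1, ALD6 over ALD4 and HXK1 over HXK2 and wholly to the right for the other 6 pairs.

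Amino acid synthesis moved in opposite directions by pathway. Branched-chain synthesis had the highest median of the lists described, 1.46, with 6 of 12 tested genes higher and 0 lower. BAT1 (YHR208W) encodes the aminotransferase of branched-chain synthesis in mitochondria and had 20.9, 29.4 and 32.5 in Glc24h and 499, 410.3 and 465 in Xyl72h (log2 4.07 ± 0.22, adjusted p = 0.000204). LEU1 (YGL009C), isopropylmalate isomerase, had 55.7, 61.1 and 57.5 in Glc24h and 1280.2, 639.6 and 581 in Xyl72h (log2 3.75 ± 0.46, adjusted p = 0.00619), and ILV3 (YJR016C), dihydroxyacid dehydratase, 42.2, 53.3 and 71.8 in Glc24h and 235, 229 and 237 in Xyl72h (log2 2.10 ± 0.21, adjusted p = 0.003). OAC1 (YKL120W), a mitochondrial carrier that also exports the leucine precursor isopropylmalate, had 43.1, 40.4 and 57 in Glc24h and 367, 469 and 396 in Xyl72h (log2 3.14 ± 0.52, adjusted p = 0.0173). LEU2 (YCL018W), the next enzyme, is a mutated allele in this strain, and its transcript had 69.4, 67.9 and 199 in Glc24h and 926, 587 and 729 in Xyl72h (log2 2.91 ± 0.49, adjusted p = 0.0187). BAT2, the cytosolic aminotransferase, LEU3, the regulator of the pathway, and LEU4 were not called (575, 401 and 656 in Glc24h and 744, 469 and 591 in Xyl72h for LEU4). The calls in the list numbered 3 to 4 without single cultures and 8 with the block. Of these calls, leaving out a culture ended OAC1 (in all fits but that without Glc24h culture 2, adjusted p = 0.0522 to 0.0743) and LEU2 (in all fits but that without Glc24h culture 2, adjusted p = 0.055 to 0.0671).

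In the aromatic, histidine, serine and threonine family 8 of 35 tested genes rose, 0 fell and 30 had a positive difference (median 0.62). HOM2 (YDR158W), an early enzyme of threonine and methionine synthesis, had 22.8, 27.8 and 20.8 in Glc24h and 136, 132 and 116 in Xyl72h (log2 2.43 ± 0.29, adjusted p = 0.00583). HIS5 (YIL116W), of histidine synthesis, rose from 16 in all 3 Glc24h cultures to 35.9, 42.9 and 41.3 in Xyl72h (log2 1.32 ± 0.20, adjusted p = 0.0126), and HIS4 (YCL030C) had 166, 121 and 149 in Glc24h and 369.8, 334 and 379.6 in Xyl72h (log2 1.32 ± 0.20, adjusted p = 0.0142). ARO4 (YBR249C), which catalyses the first step of aromatic synthesis, had 25.6, 35.6 and 29.5 in Glc24h and 147, 154 and 155 in Xyl72h (log2 2.34 ± 0.49, adjusted p = 0.0383), with tight signals in both states but a wide spread in Glc5h, which enters the shared estimate of spread (234, 190.1 and 54.5 in Glc5h). GCN4, the activator of amino acid synthesis, is regulated mainly in translation, and its transcript overlapped (1061, 503 and 900.0 in Glc24h and 1079, 739.9 and 827 in Xyl72h). The number of calls in this family fell to 2 to 5 when single cultures were left out. Without single cultures, calls were lost for HIS5 (without Xyl72h culture 1, adjusted p = 0.0569), HIS4 (without Xyl72h cultures 0 and 2, adjusted p = 0.0524 to 0.0542) and ARO4 (in all 6 fits, adjusted p = 0.0774 to 0.122). ARO4 was called under 3 of the 4 other scalings.

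Genes of sulphur amino acid synthesis were lower as a group. Of 28 tested genes 5 were called lower and 0 higher, 15 lay wholly below, and the median was -1.15. Without single cultures 2 (Xyl72h culture 1 left out) to 6 (Glc24h culture 0 left out) were called, and the median without Glc24h culture 0 was -0.77. MET2 (YNL277W), homoserine acetyltransferase, had 300.3, 123 and 133 in Glc24h and 17.4, 16 and 16 in Xyl72h (log2 -3.37 ± 0.46, adjusted p = 0.00866), so that Xyl72h lay below every Glc5h culture as well (24.6, 73.6 and 40.2 in Glc5h). MET17 (YLR303W), the enzyme that incorporates sulphide, had 1067, 341 and 395 in Glc24h and 78.5, 73.9 and 77.6 in Xyl72h (log2 -2.77 ± 0.42, adjusted p = 0.0137). SAM2 (YDR502C), a synthetase of S-adenosylmethionine, had 191, 166 and 154 in Glc24h and 52.3, 57.7 and 42.4 in Xyl72h (log2 -1.75 ± 0.28, adjusted p = 0.0155), and STR3 (YGL184C), a cystathionine lyase, 252, 164 and 219 in Glc24h and 67.6, 38.8 and 56.2 in Xyl72h (log2 -1.98 ± 0.31, adjusted p = 0.0155). MET14 (YKL001C), adenylylsulphate kinase, had 157, 65.8 and 42.9 in Glc24h and 19, 23.7 and 16 in Xyl72h (log2 -1.98 ± 0.44, adjusted p = 0.0451). In sulphate uptake and assimilation (MET3, MET10, SUL2, MET28) Glc24h culture 0 had by far the highest signals, as in MET3, with 227, 52.9 and 24.8 in Glc24h and 22.1, 17.9 and 16 in Xyl72h, and SUL2, with 214, 55.6 and 18.8 in Glc24h and 16 in all 3 cultures of Xyl72h, and these genes were not called (adjusted p = 0.209 and 0.241). MUP3 (YHL036W), a methionine permease, had 68.3, 44.6 and 57.1 in Glc24h and 16, 16 and 16.1 in Xyl72h (log2 -1.80 ± 0.20, adjusted p = 0.00389). The cysteine transporter gene YCT1 (YLL055W) had 78.5, 47.2 and 67.8 in Glc24h and 16 in all 3 cultures of Xyl72h, at least 3.95-fold lower (log2 -1.98 ± 0.19, adjusted p = 0.00264). The methionine sulphoxide reductase gene MXR1 (YER042W) had 74.9, 73.7 and 52.3 in Glc24h and 16, 19.9 and 21.4 in Xyl72h (log2 -1.80 ± 0.18, adjusted p = 0.00264). YCT1 and MXR1 were named after their values were seen. The fits that left out 1 culture ended the calls of MET14 (in all fits but that without Glc24h cultures 0 and 2, adjusted p = 0.0874 to 0.146), MET17 (without Xyl72h culture 1, adjusted p = 0.0569), SAM2 (without Xyl72h cultures 0 and 2, adjusted p = 0.0524 to 0.0559) and STR3 (without Xyl72h culture 1 or Glc24h culture 2, adjusted p = 0.0504 to 0.0569). With the block MET14 (adjusted p = 0.0533) was not called. MET14 was called under 3 of the 4 other scalings.

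**Figure D4:**
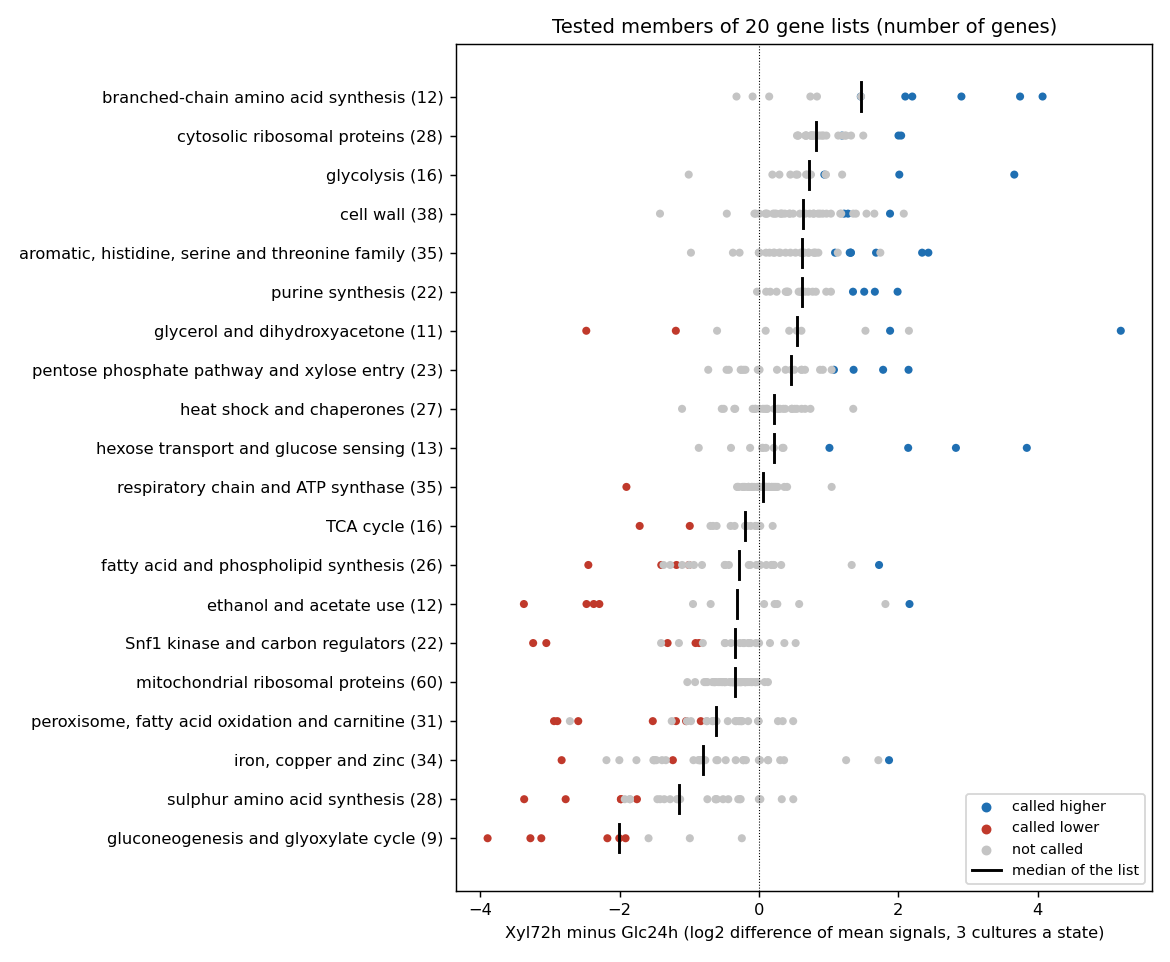
Log2 difference between Xyl72h and Glc24h (x axis, 3 cultures a state) for each tested gene of 20 gene lists, ordered by the list median (black bar), with called genes in blue (higher) and red (lower). Gluconeogenesis and the glyoxylate cycle (median -2.0), sulphur amino acids (-1.15) and iron, copper and zinc (-0.80) lie lowest, and branched-chain amino acid synthesis (1.46) lies highest.

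In purine synthesis the rises were at the branch to guanine nucleotides and in adenylate kinase. IMD3 (YLR432W), an IMP dehydrogenase, had 53.4, 64.5 and 51.1 in Glc24h and 235, 239 and 196 in Xyl72h (log2 1.99 ± 0.14, adjusted p = 0.000697), and GUA1 (YMR217W), GMP synthase, the next enzyme, 48.9, 61 and 45.4 in Glc24h and 144, 163 and 134 in Xyl72h (log2 1.51 ± 0.20, adjusted p = 0.00714). IMD2 (YHR216W) had 26.6, 35.5 and 33.3 in Glc24h and 87.3, 140.2 and 82 in Xyl72h (log2 1.66 ± 0.23, adjusted p = 0.00919), but the IMD genes are close in sequence and their probe sets may read each other. ADK1 (YDR226W), adenylate kinase, had 151, 119.9 and 192 in Glc24h and 331, 430.5 and 406 in Xyl72h (log2 1.35 ± 0.25, adjusted p = 0.025). Of 22 tested genes 4 rose and 0 fell, and 21 had a positive difference (median 0.61). The other genes of the list, such as ADE1, ADE2, ADE12 and ADE13, were not called. FUR4 (YBR021W), the uracil permease, rose with 30.1, 31.1 and 38 in Glc24h and 64.9, 68.9 and 61 in Xyl72h (log2 0.98 ± 0.12, adjusted p = 0.00553). Calls that depended on single cultures were those of ADK1 (in all fits but that without Glc24h culture 2, adjusted p = 0.0555 to 0.0953). ADK1 was called under 3 of the 4 other scalings.

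Parts of the machinery of protein synthesis were higher. All 28 tested cytosolic ribosomal protein genes had a positive difference, 23 lay wholly above and 3 were called, with a median of 0.82 that was 0.39 with cyclic loess. The calls were ASC1 (YMR116C), a protein of the small subunit that also acts in signalling, with 135, 109.6 and 130.5 in Glc24h and 553, 489.7 and 499 in Xyl72h (log2 2.04 ± 0.31, adjusted p = 0.014), RPS22A and RPL5. The number of calls was 0 to 2 when single cultures were left out, 1 with cyclic loess and 7 with the block. RPS22A had 181, 279.8 and 193 in Glc24h and 874, 862 and 838 in Xyl72h (log2 2.0 ± 0.35, adjusted p = 0.021). RPL5 had 422, 398 and 355 in Glc24h and 1110.0, 785 and 819 in Xyl72h (log2 1.19 ± 0.24, adjusted p = 0.0344). Many ribosomal proteins are encoded by gene pairs nearly identical in sequence, so that the probe sets may not tell the copies apart. In ribosome biogenesis 4 of 44 genes rose and 1 fell (1 to 3 and 0 to 1 without single cultures, 1 and 0 without Xyl72h culture 0 or 1), and GAR1 (YHR089C), a core protein of the pseudouridylation particles, had 30.8, 30.9 and 42.2 in Glc24h and 85.5, 72.8 and 90.9 in Xyl72h (log2 1.27 ± 0.18, adjusted p = 0.0105). CBF5 (YLR175W), the enzyme of the same particles, had 29.3, 48.2 and 38.8 in Glc24h and 95.4, 131 and 92.9 in Xyl72h (log2 1.47 ± 0.30, adjusted p = 0.0362). CDC60 (YPL160W), leucyl-tRNA synthetase, had 26.1, 30.2 and 22.6 in Glc24h and 48.4, 71 and 51.8 in Xyl72h (log2 1.11 ± 0.18, adjusted p = 0.0156). An elongation factor went the other way: HEF3 (YNL014W), the isoform of elongation factor EF-3 that is otherwise little expressed, had 294, 203 and 239 in Glc24h and 61.9, 65.9 and 79.5 in Xyl72h and was at the floor in Glc5h (log2 -1.82 ± 0.16, adjusted p = 0.00199). Of these calls, leaving out a culture ended ASC1 (without Xyl72h cultures 0 and 1, adjusted p = 0.0524 to 0.0555), RPS22A (in all fits but that without Glc24h culture 1, adjusted p = 0.062 to 0.08), RPL5 (in all 6 fits, adjusted p = 0.0703 to 0.102) and CBF5 (in all 6 fits, adjusted p = 0.0531 to 0.126). With the block CBF5 (adjusted p = 0.0541) was not called. RPS22A was called under 3 of the 4 other scalings, RPL5 under 2, CBF5 under 2 and CDC60 under 3.

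Cell wall genes were mostly higher, with few calls. Of 38 tested, 34 had a positive difference, 15 lay wholly above, 3 were called higher and 0 lower (median 0.63). The median was 0.28 without Glc24h culture 1, the array of unlike RNA quality, and 0.31 with cyclic loess, and 0 to 5 genes were called when single cultures were left out. CRH1 (YGR189C), a transglycosylase that links chitin to glucan, had 87.7, 39.1 and 66.4 in Glc24h and 221, 279 and 185 in Xyl72h (log2 1.88 ± 0.32, adjusted p = 0.0188), PST1 (YDR055W), a wall protein made when the wall is damaged, 304, 195 and 328 in Glc24h and 822, 571 and 595 in Xyl72h (log2 1.28 ± 0.25, adjusted p = 0.0305), and EXG1 (YLR300W), an exoglucanase, 225, 112 and 114 in Glc24h and 346, 353 and 301 in Xyl72h (log2 1.22 ± 0.28, adjusted p = 0.0499). PIR1, PIR3, CIS3 and CCW14 were wholly above without passing, as in PIR3, with 607, 204 and 337 in Glc24h and 1297, 718 and 810.1 in Xyl72h (adjusted p = 0.114). CWP1 was the exception among the wall proteins, with 554, 148 and 167 in Glc24h and 132, 95.3 and 57 in Xyl72h (adjusted p = 0.192). SLT2 (YHR030C), the kinase of the cell wall integrity pathway, was named after its values were seen. It had 40.6, 37.8 and 39.8 in Glc24h and 104, 109 and 92 in Xyl72h, tight in both states (log2 1.37 ± 0.19, adjusted p = 0.00919). NCW2 (YLR194C), a wall protein, had 65.7, 26 and 59.2 in Glc24h and 391, 499 and 283 in Xyl72h (log2 3.03 ± 0.43, adjusted p = 0.00935), and PRM5 (YIL117C), a membrane protein regulated by pheromone and by wall stress, 22.7, 16 and 27.2 in Glc24h and 87.9, 163 and 129 in Xyl72h (log2 2.51 ± 0.45, adjusted p = 0.022). PRM10 (YJL108C), another membrane protein regulated by pheromone and also named after its values were seen, had 16.9, 16 and 23.5 in Glc24h and 117, 120.0 and 62.8 in Xyl72h (log2 2.37 ± 0.31, adjusted p = 0.00708). Of 18 tested genes of mating, only MF(ALPHA)2 (YGL089C), the minor alpha factor gene, was called, with 124, 26.1 and 16.5 in Glc24h and 324, 455 and 396 in Xyl72h (log2 3.36 ± 0.71, adjusted p = 0.0383). FUS1, FUS3, STE12 and FAR1 overlapped. Without single cultures, calls were lost for CRH1 (without Xyl72h cultures 0 and 1 or Glc24h culture 2, adjusted p = 0.0527 to 0.078), PST1 (in all 6 fits, adjusted p = 0.0514 to 0.0931), EXG1 (in all fits but that without Glc24h culture 0, adjusted p = 0.117 to 0.153), PRM5 (in all fits but that without Xyl72h culture 0, adjusted p = 0.0504 to 0.0884) and MF(ALPHA)2 (in all fits but that without Glc24h culture 0, adjusted p = 0.0868 to 0.127). EXG1 was called under 3 of the 4 other scalings.

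In the list of fatty acid and phospholipid synthesis 4 of 26 tested genes fell and 1 rose, and 1 fell and 0 rose in each fit without a culture. The median was -0.29, and -0.55 with scaling on reference genes. INO1 (YJL153C), inositol phosphate synthase, had 308, 224 and 223 in Glc24h and 27.9, 58.1 and 58.7 in Xyl72h (log2 -2.45 ± 0.34, adjusted p = 0.00908). The Xyl72h signals overlapped those of Glc5h (58.3, 39.8 and 34.6 in Glc5h). ITR1 (YDR497C), the inositol transporter, had 315, 243 and 376 in Glc24h and 134, 134 and 137 in Xyl72h (log2 -1.18 ± 0.26, adjusted p = 0.0423), OPI3 (YJR073C), a methyltransferase of phosphatidylcholine synthesis, 498, 398 and 518 in Glc24h and 181, 179.9 and 172 in Xyl72h (log2 -1.40 ± 0.28, adjusted p = 0.034), and PSD1 (YNL169C), the mitochondrial phosphatidylserine decarboxylase, 133, 128 and 117 in Glc24h and 57.1, 71.6 and 60 in Xyl72h (log2 -1.0 ± 0.20, adjusted p = 0.0318). CHO1, CHO2, CPT1 and OPI1 lay wholly below without passing, as in CHO2, with 257, 231 and 264 in Glc24h and 130.1, 96.7 and 88.2 in Xyl72h (adjusted p = 0.18). FAS1, FAS2, ACC1 and OLE1, of fatty acid synthesis, overlapped, and ELO3 (YLR372W), an elongase, rose with 23.5, 31.1 and 40.9 in Glc24h and 78.9, 124 and 111 in Xyl72h (log2 1.73 ± 0.37, adjusted p = 0.0415). The fits that left out 1 culture ended the calls of ITR1 (in all 6 fits, adjusted p = 0.0526 to 0.13), OPI3 (in all 6 fits, adjusted p = 0.0599 to 0.109), PSD1 (in all 6 fits, adjusted p = 0.0682 to 0.108) and ELO3 (in all 6 fits, adjusted p = 0.0642 to 0.138). With the block ITR1 (adjusted p = 0.0671) and ELO3 (adjusted p = 0.0638) were not called. ELO3 was called under 1 of the 4 other scalings.

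Metal genes leaned downwards with few calls. In the list of iron, copper and zinc 16 of 34 tested genes lay wholly below, against 12% of all genes, with a median of -0.80. In this list 2 fell (5.88%, against 2.67% of all genes) and 1 rose (2.94%, against 2.61%). SIT1 (YEL065W), a transporter of siderophore-bound iron, had 410.3, 254 and 146 in Glc24h and 54.8, 22.2 and 34.9 in Xyl72h (log2 -2.83 ± 0.46, adjusted p = 0.0168), and SMF2 (YHR050W), a manganese transporter, 90.7, 73.9 and 82.7 in Glc24h and 33.6, 30.4 and 41.7 in Xyl72h (log2 -1.23 ± 0.27, adjusted p = 0.0418). The iron reductase and uptake genes FRE1, FRE2, FET3 and FIT2 lay wholly below without passing, as in FET3, with 591, 378 and 385 in Glc24h and 225, 113 and 152 in Xyl72h (adjusted p = 0.0746). The rise was in ISU2 (YOR226C), a scaffold protein for iron-sulphur clusters, with 71.4, 60.8 and 75.7 in Glc24h and 258, 238 and 261 in Xyl72h (log2 1.87 ± 0.20, adjusted p = 0.00359), while its partner ISU1 had 618, 322 and 554 in Glc24h and 325, 227 and 270.5 in Xyl72h (adjusted p = 0.203). The zinc transporter genes ZRT1, ZRT2 and ZRT3 overlapped. Calls that depended on single cultures were those of SIT1 (without Xyl72h cultures 1 and 2, adjusted p = 0.0559 to 0.0592) and SMF2 (in all 6 fits, adjusted p = 0.0791 to 0.139). With the block SMF2 (adjusted p = 0.0663) was not called. SMF2 was called under 3 of the 4 other scalings.

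Among nitrogen catabolite repressed genes 3 of 16 tested fell, all of them transporters. MEP2 (YNL142W), the high-affinity ammonium permease, had 51.2, 59.7 and 54.1 in Glc24h and 19, 26.4 and 31.1 in Xyl72h (log2 -1.14 ± 0.18, adjusted p = 0.0157), DUR3 (YHL016C), the urea transporter, 47.9, 59.9 and 58.1 in Glc24h and 19.4, 25.2 and 30.9 in Xyl72h (log2 -1.16 ± 0.18, adjusted p = 0.0147), and MEP3 (YPR138C), a low-affinity ammonium permease, 75.1, 44.3 and 48.7 in Glc24h and 16.5, 16 and 16 in Xyl72h (log2 -1.75 ± 0.38, adjusted p = 0.0423). GAP1, the general amino acid permease, had 152, 133 and 97.1 in Glc24h and 29.4, 26.6 and 32.8 in Xyl72h, 4.24-fold lower, but missed the threshold (adjusted p = 0.119), with Glc5h culture 2 far from the other Glc5h cultures (28.8, 39.3 and 190.0 in Glc5h). The enzymes CAR2, PUT1, PUT2, UGA1 and DAL2 overlapped. Of these calls, leaving out a culture ended MEP2 (without Xyl72h culture 1, adjusted p = 0.0569), DUR3 (without Xyl72h culture 1, adjusted p = 0.0569) and MEP3 (in all 6 fits, adjusted p = 0.074 to 0.129). With the block MEP3 (adjusted p = 0.0583) was not called. MEP3 was called under 3 of the 4 other scalings.

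PDR12 and RSB1, genes of membrane export, changed in opposite directions. Both were named after their values were seen, and no list of export genes was made, so they do not stand for membrane export as a whole. PDR12 (YPL058C), the pump that exports weak organic acids, had 73.3, 102 and 89.8 in Glc24h and 642, 308 and 416 in Xyl72h (log2 2.31 ± 0.31, adjusted p = 0.00866). RSB1 (YOR049C), a transporter or flippase of sphingoid bases, had 57.1, 71.6 and 66.4 in Glc24h and 16 in all 3 cultures of Xyl72h, at least 4.05-fold lower (log2 -2.02 ± 0.11, adjusted p = 0.000204). ARO10 (YDR380W), the decarboxylase that starts fusel alcohol formation from amino acids, also fell, with 92.9, 79.9 and 52.6 in Glc24h and 19.5, 16.3 and 20.1 in Xyl72h (log2 -1.98 ± 0.21, adjusted p = 0.00321), as did LEU5 (YHR002W), a mitochondrial carrier needed for coenzyme A there, with 35.4, 42.1 and 48.6 in Glc24h and 16, 16.5 and 18.4 in Xyl72h (log2 -1.30 ± 0.13, adjusted p = 0.003). ARO10, too, was named after its values were seen.

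Lists of stress, storage and growth gave few calls or none. Of 27 heat shock and chaperone genes and of 27 genes of the stationary phase and hydrophilins, 0 passed limma's test in either direction, with medians of 0.22 and 0.07 that were below 0 under quantile normalization (-0.15 and -0.25) and cyclic loess (-0.24 and -0.28). At an unadjusted p under 0.05, 2 of the heat shock genes were higher and 1 lower, and 0 and 2 of the stationary phase genes. Of 20 genes of trehalose and glycogen only GAC1 (YOR178C), a subunit that directs the phosphatase Glc7 to glycogen synthase, was called, with 208, 115 and 125 in Glc24h and 78.1, 42.3 and 49.8 in Xyl72h (log2 -1.40 ± 0.28, adjusted p = 0.0341). TPS1, NTH1 and GPH1 overlapped, as in TPS1, with 413, 249 and 288 in Glc24h and 359, 244 and 273 in Xyl72h. The trehalose and glycogen list still leaned downwards, with a median of -0.50. Of its 20 genes 7 lay wholly below, against 12% of all genes, 0 lay wholly above and 3 had a positive difference. Its median was -0.68 to -0.57 under the 4 other scalings and -0.57 to -0.38 when single cultures were left out. In the cell cycle list 0 of 28 were called, with 2 higher and 1 lower at an unadjusted p under 0.05. All 10 reference genes were uncalled, with 1 higher at an unadjusted p under 0.05, and their median of 0.17 fell to -0.20 with cyclic loess. Without single cultures, calls were lost for GAC1 (in all fits but that without Xyl72h culture 0, adjusted p = 0.0508 to 0.115). GAC1 was called under 3 of the 4 other scalings.

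Glc5h shows where the changes lie relative to glucose repressed cells, by counts alone, since comparisons with Glc5h share samples with this one. Over all 4681 genes the mean was highest in Glc5h for 47.7%, between the other states for 13.5%, lowest for 34.4% and equal to another state, at the floor, for 4.53%. Of the 125 genes lower in Xyl72h than in Glc24h, 74 (59.2%) were lowest in Glc5h, 30 (24%) lay between, 14 (11.2%) were highest there and 7 (5.6%), ADY2 and STL1 among them, were at the floor in Glc5h as in Xyl72h. In 40 of the 125, all 3 Glc5h cultures were at the floor, as in FBP1, SFC1, SIP4, IDP2 and NDE2. Among the 122 genes higher, Glc5h was highest for 49 (40.2%), between for 42 (34.4%), lowest for 27 (22.1%) and equal to another state for 4 (3.28%). SOL3, HXT2, HXT3, HXK2 and GUA1 were among those highest in Glc5h, LEU2, YMR315W and HXT4 among those between, and DAK2, AQY3 and TDA1 among those lowest.

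Some calls were neighbours on a chromosome. Of 3594 pairs of adjacent tested genes 18 (0.501%) had both members called, 9 with both higher, 5 with both lower and 4 in opposite directions, of 363 pairs with any call. Beside AQY3 and DAK2 these were, among the rises, BAT1 with CRG1 (YHR209W), a methyltransferase gene that had 16 in all 3 cultures of Glc24h and 30.2, 46.2 and 33 in Xyl72h (log2 1.16 ± 0.16, adjusted p = 0.00879), PRM5 with HIS5, HIS7 with ARO4 and SHB17 with UIP5. Among the falls were CIT3 with PDH1 and REG2 with RFS1 (YBR052C), which had 236, 253 and 224 in Glc24h and 147, 116 and 129 in Xyl72h (log2 -0.87 ± 0.12, adjusted p = 0.0101). In opposite directions went ACS1 and FLC2 (YAL053W), a flavin carrier, which start from the same intergenic stretch and had log2 differences of -2.37 and 1.05, and IDP2 and CBF5, with -2.0 and 1.47. Of the 18 pairs, 6 were divergent, 9 in tandem and 3 convergent, out of 932, 1711 and 951 such pairs tested. CRG1, RFS1, FLC2 and UIP5 were named after their values were seen, and genes that overlap on the chromosome were not set apart. The fits that left out 1 culture ended the calls of HIS7 (in all fits but that without Glc24h culture 1, adjusted p = 0.0539 to 0.104), UIP5 (without Xyl72h cultures 1 and 2, adjusted p = 0.0579 to 0.0662) and FLC2 (without Xyl72h cultures 0 and 1 or Glc24h culture 2, adjusted p = 0.0586 to 0.0651). HIS7 was called under 3 of the 4 other scalings and FLC2 under 3.

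Finally, 65 of the 198 probe sets called higher, but 7 of the 133 called lower, had no single gene name. Most of the former were of a kind that Affymetrix marks as matching a family of similar sequences. Among the 277 unnamed probe sets of this kind that were tested, 50 (18.1%) were called higher and 1 lower, and 231 had a positive difference (median 0.56). Their median signal was 119, 106 and 95.6 in the 3 Glc24h cultures, 185, 183 and 163 in the Xyl72h cultures and 124, 138 and 127 in the Glc5h cultures, so that all 3 Xyl72h cultures lay above the others. The called ones differed by 0.47 to 1.32 on the log2 scale. These probe sets may share sequences and are not independent of each other, with a median pairwise correlation of 0.864 over the 9 cultures among the 50 called. The number called was 7 to 28 when single cultures were left out (8 without Xyl72h culture 1, 9 without Xyl72h culture 0, 7 without Glc24h culture 2), 12 to 26 under the 4 other scalings and 111 with the block. What they match is not named in the annotation used here.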

How the data were processed

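RNA of 9 samples from 3 glucose and 3 xylose fermentations was hybridised to 15 Affymetrix Yeast Genome S98 arrays. The values deposited by the authors are linear signal intensities of 9335 probe sets, each array scaled by the authors so that its trimmed mean (2% at either end) is near 50. The study's methods describe log2 values from RMA, which the table does not hold. Cultures were grouped by the sugar and time in their titles, since another label field gives 24 h or 5 h for some arrays of Xyl72h and Glc24h. A total of 60 control probe sets were removed, each array was scaled to a common 75th percentile (51.08), signals under 16 were set to 16, log2 was taken and the 3 hybridisations of a culture were averaged. Of 9275 probe sets, 3398 at the floor on every array were left out. Xyl72h was compared with Glc24h in limma 3.58.1 (R 4.3.3, lmFit and eBayes over all 9 cultures), with a threshold of 0.05 on the p-value after Benjamini-Hochberg adjustment over 5877 probe sets. The fit took the Glc5h and Glc24h samples of the same glucose vessel as independent and pooled their spread with that of Xyl72h. Arrays give no read depth, and their number limits the precision. Where all cultures of a state are at the floor its spread is set to 0, so that the p-value may be too small and a fold is a lower bound.

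The annotation gave a single gene name for 6504 probe sets, several for 328 and none for 2443, and 5656 genes were named. A gene with several probe sets was represented by the plain one of highest mean. The genes named were, first, the 15 largest differences in each direction among calls without overlap and with a mean signal of 100 or more in the higher state. From each list they were up to 4 called members and the 2 uncalled ones of largest difference, with up to 10 isoenzyme pairs. Other genes, whether called (such as MLS1 and ICL1) or not, were named after their values were seen, also where the text does not say so. Members and lists were chosen with earlier results of these data known. Cultures of the same fermentation number deviated together from their state means (r = 0.577, 0.529 and 0.566 over probe sets for numbers 0, 1 and 2). The mean r with other numbers was -0.262, -0.324 and -0.253. Deviations from a mean of 3 cultures sum to 0. Positive values for the same number therefore bring negative ones with other numbers, which add no support for pairing. The number was taken to pair samples in an alternative fit, although a glucose and a xylose culture of a number were separate vessels. Other alternatives were 4 scalings, other floors and filters, the 6 cultures alone, other treatments of the repeat hybridisations, other moderation of the variance and leaving out each culture. The fit was tested on simulated data. Promoter motifs were not examined. Figures were drawn with matplotlib 3.10.9.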

Additional observations from a re-analysis of the deposited data

How the results depend on the processing

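Against 198 probe sets higher and 133 lower, 106 were higher without scaling between arrays, 213 were lower with scaling on reference genes, 95 were higher and 62 lower without the filter on low signals, and 97 and 66 with a one-way model without empirical Bayes. With the replicate block 327 were higher and 160 lower. The block kept 112 of the 122 genes called higher and 106 of the 125 called lower, and the named genes it ended are given beside their values. Leaving out 1 culture gave 62 to 120 higher and 47 to 96 lower. The split of the calls moved with the scaling: 59.8% of the called probe sets were higher in the reported fit, 39.3% without scaling and 40.0% with reference genes. The filter of 32 in 3 cultures moved the median of all probe sets to 0.108 (log2). Without the probe sets of sequence families, an alternative chosen after seeing the data, 139 were higher and 132 lower. The cause of these shifts was not tested. None of the 102 genes called and named by the rule changed sign in these alternatives, but the median of 9 of 45 gene lists had the opposite sign under another scaling and that of 6 without a culture, the respiratory, heat shock and stationary phase lists among both. Signals near the floor of 16 limit what can be seen of weakly expressed genes, and 3 cultures a state limit the rest.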
